A study of Mus musculus with 12 samples.

Results

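The genes described here are the members of 3 symbol families that build and run the sorting machinery of the endosome: the Vps genes (vacuolar protein sorting), the Snx genes (sorting nexins) and the Chmp genes (charged multivesicular body proteins). They were taken by name alone, as every gene whose symbol is Vps, Snx or Chmp followed by a number, with pseudogenes left out. The rule used no measured value. It gave 75 of the 32721 genes of the deposited table, 35 Vps, 30 Snx and 10 Chmp genes, and 74 of the 75 passed the filter on low values. The member that did not was Snx20, a sorting nexin of blood cells, with 0 to 2.00 normalised counts in the 12 libraries.

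The study profiled polyadenylated RNA of mouse embryonic fibroblasts (MEFs) that carry floxed alleles of Vps15 (Vps15f/f), in 12 libraries of 4 groups of 3. All cells received an adenovirus, and RNA was taken 5 days later. The virus carried GFP in the group called WT and Cre recombinase in the group called Vps15KO, so that WT stands for floxed cells without Cre and all 4 groups share the floxed background and the infection. Each genotype was sampled in basal medium (DMEM with 4.5 g/L glucose and 10% serum) or after 2 h in EBSS, a salt solution with glucose and without amino acids or serum. The cells are given as 1 line, a group with Cre but without floxed alleles was not analysed here, and the library names use the word pLEX where the protocol speaks of adenovirus. Nothing in the labels says that the replicates were separate cultures or infections, so p-values measure the spread between libraries, which may be technical.

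Vps15 is the protein of Pik3r4. It holds and regulates the lipid kinase Vps34 (Pik3c3), and together they form class 3 PI3K, which makes the lipid PI3P on endosomes. Sorting nexins hold a PX domain, many of which bind PI3P. With the retromer trimer of Vps35, Vps29 and a Vps26 subunit, and with retriever, built from Vps35l, Vps26c and Vps29, they carry receptors and transporters back from endosomes to the Golgi or the cell surface. ESCRT complexes do the opposite: ESCRT-I and ESCRT-II pass ubiquitinated cargo on, and ESCRT-III filaments made of Chmp proteins, taken apart by the Vps4 ATPases, pinch it into the multivesicular body for breakdown in the lysosome. HOPS and CORVET tether endosomes and lysosomes before fusion, and GARP and EARP tether vesicles at the Golgi and at recycling endosomes.

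Promoter sequence was examined for every member for which it was available, and the shares of motifs are described without a test. RefSeq promoter windows (GRCm38.p6) matched 49 of the 75 members, and the 250 bases before each start were searched on both strands for 5 motifs: CACGTG, the E-box core; TCACGTGA, the core of the element bound by the lysosomal gene regulators TFEB and TFE3, which contains CACGTG; TGACGTCA, the cAMP response element; TGATGNAA, an amino acid response element; and GTAAACA, a forkhead motif. TCACGTGA stood in 3 of 49 members (6.12%), against 1.76% of the 10879 tested genes with a window and 0.785% of all 32851 windows. The 3 were Vps26a, Vps33a and Vps16. CACGTG stood in 6 members (12.2%, against 9.8% of tested genes), those 3 with Snx5, Snx8 and Snx18. GTAAACA stood in Vps26b and Vps45 (4.08% against 2.67%). Neither TGACGTCA nor TGATGNAA occurred in a member's window (2.95% and 2.54% of tested genes). The windows of the 3 genes with TCACGTGA are shown because their transcripts went in different directions, and that of Vps26b because it encodes the alternative to Vps26a in the same complex. Each reads 5′ to 3′ on the gene's strand and ends at the base before the start. Capitals mark TCACGTGA in the first 3 and GTAAACA in Vps26b. The windows are chr10:62486806-62487055 (minus strand) for Vps26a, chr2:130424070-130424319 (plus strand) for Vps16 and chr9:27030095-27030344 (minus strand) for Vps26b. Of Vps33a only the last 29 bases, chr5:123573016-123573044 (minus strand), are given. They too lie within the span of a longer transcript of the gene, which covers much of its window.
Vps26a: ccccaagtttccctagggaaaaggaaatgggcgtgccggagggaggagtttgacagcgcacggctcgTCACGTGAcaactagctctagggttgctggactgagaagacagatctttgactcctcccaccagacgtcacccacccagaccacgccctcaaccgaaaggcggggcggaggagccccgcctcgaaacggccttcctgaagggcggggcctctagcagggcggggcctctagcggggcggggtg
Vps33a: TCACGTGAacgtcccgTCACGTGAcgcag
Vps16: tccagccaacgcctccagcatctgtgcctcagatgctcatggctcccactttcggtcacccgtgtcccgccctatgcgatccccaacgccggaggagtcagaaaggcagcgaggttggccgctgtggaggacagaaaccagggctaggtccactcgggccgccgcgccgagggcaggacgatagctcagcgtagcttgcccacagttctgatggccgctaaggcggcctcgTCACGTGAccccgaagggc
Vps26b: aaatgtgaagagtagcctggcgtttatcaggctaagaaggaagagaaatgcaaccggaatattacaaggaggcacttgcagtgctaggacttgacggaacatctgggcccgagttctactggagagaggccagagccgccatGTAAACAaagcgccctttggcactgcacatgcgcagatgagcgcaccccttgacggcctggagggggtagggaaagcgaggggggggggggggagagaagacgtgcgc
The first base of TCACGTGA lay 183 bases before the start in the Vps26a window shown, 29 and 13 bases before it in Vps33a, and 19 bases before it in Vps16. A second window of Vps26a, for a start further inside the gene, is not shown because it lies within transcripts, and it holds TCACGTGA as well. GTAAACA began 108 bases before the start of Vps26b. A match is a description of these letters and shows no binding.

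Sums of reads were 21278921 to 21698584 per library, so the libraries were of nearly equal depth. Levels are given as normalised counts, the reads of a gene in a library divided by that library's size factor, and mean ± SD values are over n = 3 libraries. Log2 changes ± SE come from a limma model of the deposited log2 values over all 12 libraries, and a gene is said to rise, fall or be called higher or lower where its Benjamini-Hochberg adjusted p over all 14279 genes tested was under 0.05. The targeted gene Pik3r4 stood at 875 ± 10.3 in WT basal, 895 ± 62.7 in WT EBSS, 658 ± 36.7 in Vps15KO basal and 632 ± 35.9 in Vps15KO EBSS libraries. It was lower in Vps15KO by 0.40 on the log2 scale in basal medium and by 0.48 in EBSS (adjusted p = 8.41e-05 and 1.03e-05). Which exons Cre removes is not given in the sources used here, and reads from the other exons do not report the deletion. Pik3c3 did not pass the test between genotypes (-0.04 ± 0.06 in basal medium and -0.10 ± 0.06 in EBSS). Of 12 fibroblast markers 11 passed the filter, and their summed level was 574400 to 601830 in WT basal, 511030 to 546350 in WT EBSS, 286200 to 289390 in Vps15KO basal and 283900 to 297410 in Vps15KO EBSS libraries, with Thy1 near 0. The sum of 7 leukocyte markers went from 865 to 897 in WT basal libraries to 2921 to 3798 in Vps15KO basal ones, nearly all of it Cd68, while Ptprc, Cd3e, Itgam and Lyz2 stayed at or near 0. Csf1r, the other leukocyte marker that passed the filter, was low at 2.69 ± 2.06 in WT basal, 14.5 ± 2.11 in WT EBSS, 6.85 ± 2.92 in Vps15KO basal and 15.4 ± 1.10 in Vps15KO EBSS libraries, and was called higher in Vps15KO in basal medium (0.37 ± 0.14, adjusted p = 0.0334) and with EBSS in both genotypes. Endothelial and epithelial markers summed to at most 25.7 in any library. In bulk RNA, a change in the share of cells and a change of RNA per cell cannot be told apart. WT basal replicate 2 and WT EBSS replicate 1 stood apart from their groups, and the counts below are given without them where that matters.

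EBSS for 2 h moved the machinery in both directions. In WT cells the ESCRT-I subunit Vps37b rose to 239% of its basal mean, the retromer subunit Vps26a to 218% and the endocytic sorting nexin Snx9 to 209%. Vps37d, an ESCRT-I alternative to Vps37b, fell to 33.1% of its basal mean, and the nexins Snx32 and Snx22 to 37.6% and 27.2%. EBSS raised 22 and lowered 26 of the 74 tested members in WT cells, beside 31.4% and 31.3% of all genes tested that rose and fell. In Vps15KO cells it raised 17 and lowered 19, beside 25.9% and 26.1% of all genes. These shares are near the background in both genotypes, so the number of changes among the members was close to that among genes at large. With the added requirement of a log2 change of at least 0.5, the counts were 12 and 10 in WT (15.4% and 12.2% of all genes) and 6 and 2 in Vps15KO (11.6% and 6.27%). The median change of the members was -0.015 in WT and 0.011 in Vps15KO, beside -0.015 and -0.019 over all genes.

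The retromer scaffold Vps35, the ESCRT-I subunit Vps37a and the sorting nexins Snx10 and Snx31 were higher in Vps15KO than in WT in both media, and Vps13b was lower. Snx31 was at the limit of detection in WT libraries and passed the filter on low values only through its Vps15KO libraries. Cre and the loss of Vps15 cannot be told apart here. In basal medium 25 members were higher and 24 lower in Vps15KO than in WT, beside 29.3% and 29.2% of all genes. In EBSS 27 were higher and 11 lower, beside 29.4% and 27.8%. That surplus of higher over lower members in EBSS depended on how the libraries were scaled: with equal medians the counts were 22 and 22, with quantile normalisation 23 and 21, and with the trends for transcript length and GC content removed 25 and 21. The count of lower members in EBSS was also 21 without WT basal replicate 2, and 5 to 7 without WT EBSS replicate 1 or 2 or Vps15KO EBSS replicate 1 or 3. With a log2 change of at least 0.5 required, the counts were 8 and 2 in basal medium (12.6% and 11.8%) and 9 and 2 in EBSS (13% and 11.6%). Without WT basal replicate 2 and WT EBSS replicate 1 the counts were 26 and 22 in basal medium and 29 and 15 in EBSS. In both media 19 members were higher (25.7%, beside 20.6% of all genes) and 8 were lower (10.8%, beside 19.8%), and none was called in opposite directions.

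**Figure D1:**
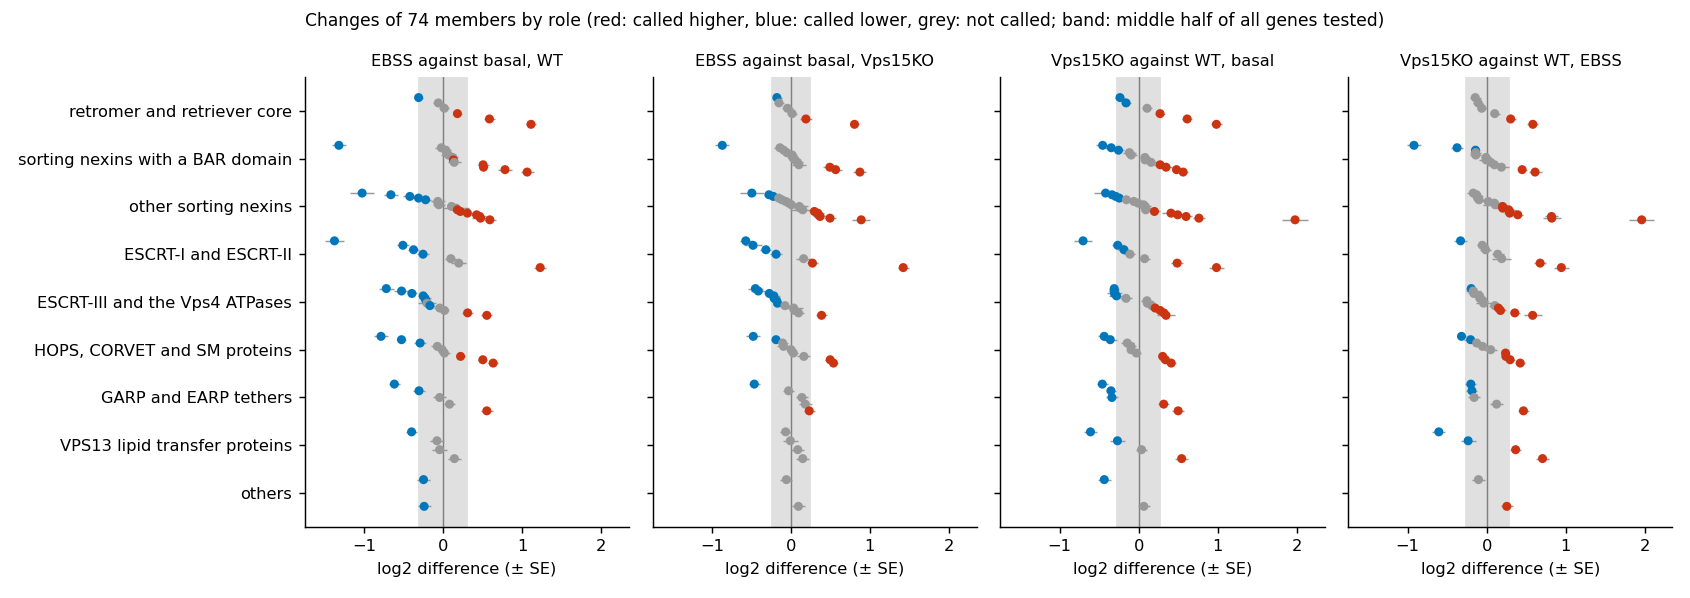
Log2 difference ± SE (horizontal axis) of each of the 74 tested members, a point each, by role group (rows), for the 2 EBSS and the 2 genotype comparisons; red points were called higher, blue ones lower and grey ones not called, and the grey band is the interquartile range of all genes tested. The ESCRT-III and Vps4 row holds 7 blue points in both EBSS panels. Snx31, which passed the filter only through its Vps15KO libraries, lies at 1.98 and 1.96 at the right of the genotype panels.

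Retromer itself changed unevenly. Of the 6 core subunits of retromer and retriever, EBSS raised 3 and lowered 1 in WT (31.4% and 31.3% of all genes) and raised 2 and lowered 1 in Vps15KO (25.9% and 26.1%). Vps15KO had 3 higher and 2 lower in basal medium (29.3% and 29.2%), and 2 higher and 0 lower in EBSS (29.4% and 27.8%). With quantile normalisation, and with length and GC trends removed, the counts were 2 and 2 for EBSS in WT, and 1 and 2 or 1 and 3 for EBSS in Vps15KO. For Vps15KO in EBSS they were 2 and 2 under both of these and with equal medians. Vps26a and Vps35 were higher in all 4 comparisons, and the retriever subunit Vps26c fell with EBSS in both genotypes.

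Vps26a (chr10:62454843-62486805), 1 of the 2 interchangeable arrestin-fold subunits that join Vps35 to membranes and cargo adaptors, had 1597, 1408 and 1512 normalised counts in WT basal, 3387, 3288 and 3192 in WT EBSS, 2427, 2261 and 2256 in Vps15KO basal and 4350.1, 3971 and 3879.9 in Vps15KO EBSS libraries. The 4 groups did not overlap, and the order was WT basal, Vps15KO basal, WT EBSS, Vps15KO EBSS. EBSS raised it by 1.11 ± 0.06 in WT (adjusted p = 6.5e-11) and by 0.81 ± 0.06 in Vps15KO (adjusted p = 7.5e-09). Vps15KO was higher by 0.61 ± 0.06 in basal medium and by 0.30 ± 0.06 in EBSS. The difference of the EBSS effects, Vps15KO minus WT, was -0.31 ± 0.09 (adjusted p = 0.0224), and 5 of the 12 fits without 1 library did not call it. Its counterpart Vps26b (chr9:27004502-27030094) had 1348, 1198 and 1342 normalised counts in WT basal, 1383, 1244 and 1308 in WT EBSS, 1556, 1535 and 1605 in Vps15KO basal and 1362, 1438 and 1424 in Vps15KO EBSS libraries. Vps26b did not pass the test for EBSS in either genotype (0.02 ± 0.06 and -0.15 ± 0.06), and was higher in Vps15KO in basal medium by 0.27 ± 0.06 (adjusted p = 0.00135). Per kilobase of transcript, Vps26a made up 60.5% of the pair in WT basal, 76.8% in WT EBSS, 66.1% in Vps15KO basal and 79.2% in Vps15KO EBSS libraries.

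Vps35 (chr8:85260385-85299517), the long solenoid on which the retromer trimer is built, had 3981, 3194 and 3849.6 normalised counts in WT basal, 5422, 5642 and 5474 in WT EBSS, 7350, 7072 and 7338 in Vps15KO basal and 8469, 8499 and 7878 in Vps15KO EBSS libraries. Every Vps15KO library lay above every WT library of either medium. Vps15KO was higher by 0.98 ± 0.07 in basal medium (adjusted p = 1.65e-09) and by 0.58 ± 0.07 in EBSS (adjusted p = 1.2e-06). EBSS raised it by 0.59 ± 0.07 in WT. In Vps15KO the rise was 0.19 ± 0.07 (adjusted p = 0.0309) and was lost in 8 of the 21 alternative fits, among them 5 of the 6 that left out a Vps15KO library. The difference between those effects, -0.40 ± 0.10, passed the test (adjusted p = 0.00994) and was lost with quantile normalisation. Exons of Vps35 overlap Orc6 on the other strand, which was higher in Vps15KO by 0.25 in basal medium and 0.22 in EBSS. Library construction kept the strand, and whether the counting used it is not given in the sources used here.

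Vps29 (chr5:122354328-122364984), the small subunit shared by retromer and retriever, had 1471, 1424 and 1426 normalised counts in WT basal, 1633, 1661 and 1623 in WT EBSS, 1551, 1655 and 1452 in Vps15KO basal and 1659, 1476 and 1574 in Vps15KO EBSS libraries. It was the steadiest of the trimer. EBSS raised it in WT by 0.18 ± 0.06 (adjusted p = 0.0159), a call lost with quantile normalisation, with length and GC trends removed and without WT EBSS replicate 2, and no other comparison called it. The retriever subunit Vps26c (chr16:94497724-94526629) had 2160.5, 2218 and 2028 normalised counts in WT basal, 1778, 1746 and 1633 in WT EBSS, 1801, 1902 and 1716 in Vps15KO basal and 1617, 1631 and 1532 in Vps15KO EBSS libraries. It fell with EBSS by 0.31 ± 0.06 in WT (adjusted p = 0.000276) and by 0.18 ± 0.06 in Vps15KO (adjusted p = 0.0217, lost without Vps15KO basal replicate 2 or EBSS replicate 3), and was lower in Vps15KO in basal medium by 0.24 ± 0.06. Vps35l (chr7:118740178-118841491), the scaffold of retriever, had 2632, 2956 and 2475 normalised counts in WT basal, 2578, 2735 and 2411 in WT EBSS, 2394, 2429 and 2362 in Vps15KO basal and 2255, 2322 and 2395 in Vps15KO EBSS libraries. Its only call was -0.16 ± 0.07 for Vps15KO in basal medium (adjusted p = 0.0466), which was lost in 11 of 21 alternative fits.

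**Figure D2:**
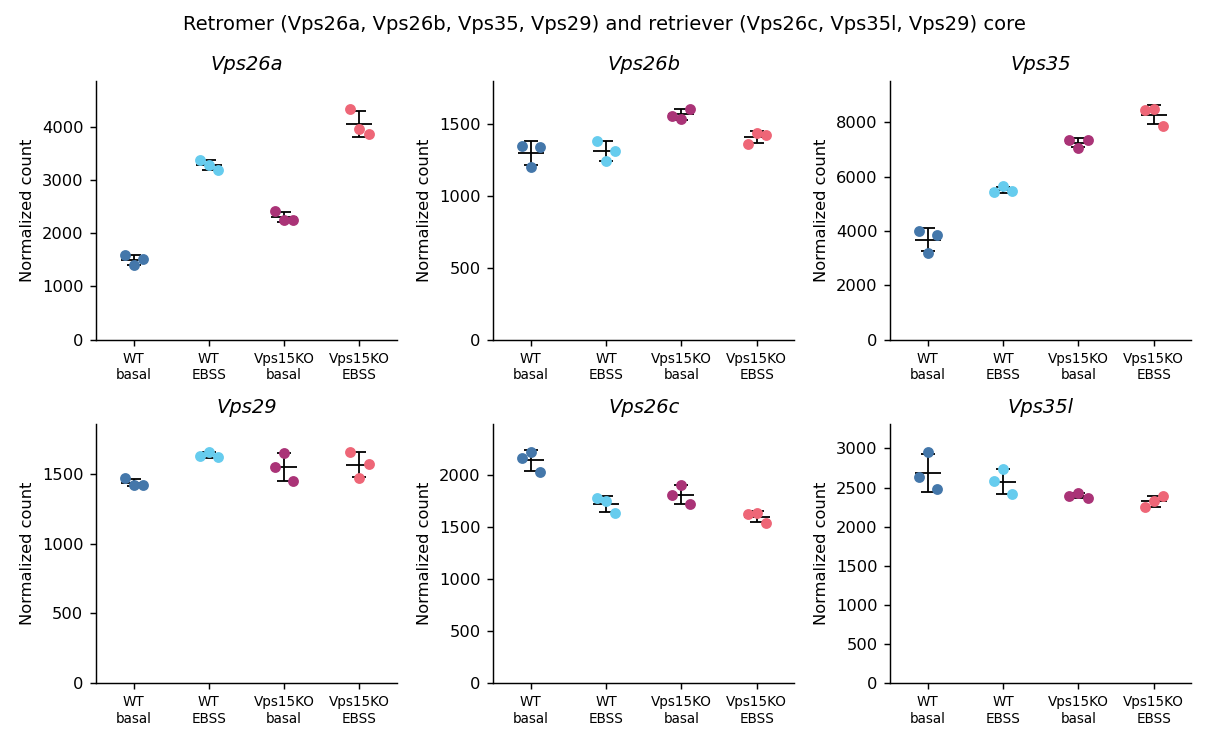
Normalised counts (vertical axis, from 0) of the 6 core subunits in each of the 12 libraries, by group, with the group mean and SD (n = 3). The 3 Vps15KO basal libraries of Vps35 sit at 7072 to 7350, above the WT EBSS libraries at 5422 to 5642, and Vps26a rises from 1408 to 1597 in WT basal to 3192 to 3387 in WT EBSS libraries.

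The BAR-domain sorting nexins, which bend membrane into tubules, split by pair. EBSS raised 5 and lowered 1 of the 12 in WT (31.4% and 31.3% of all genes) and raised 3 and lowered 1 in Vps15KO (25.9% and 26.1%). In Vps15KO 4 were higher and 3 lower in basal medium (29.3% and 29.2%), and 2 and 3 in EBSS (29.4% and 27.8%). Under quantile normalisation the EBSS count in Vps15KO turned to 3 higher and 4 lower. Snx1, Snx4 and Snx7 were called in none of the 5 comparisons, and the share of all genes called in none was not computed.

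Snx2 (chr18:53176292-53220866) pairs with Snx5 or Snx6 in the retrograde coat in place of Snx1, and had 1974, 1902 and 2092 normalised counts in WT basal, 2874, 2889 and 2784 in WT EBSS, 2964, 2919 and 2954 in Vps15KO basal and 3241, 2930.1 and 2992 in Vps15KO EBSS libraries. WT basal libraries lay below all the others, which were close to each other. EBSS raised it by 0.51 ± 0.06 in WT (adjusted p = 4.43e-07), and in Vps15KO the change was 0.05 ± 0.06 (adjusted p = 0.484). The difference, -0.46 ± 0.08, passed the test (adjusted p = 0.000724). Vps15KO was higher in basal medium by 0.56 ± 0.06. Snx1 gave group means of 1288 ± 2.48, 1322 ± 44.8, 1361 ± 52.2 and 1314 ± 70.1 in the order WT basal, WT EBSS, Vps15KO basal and Vps15KO EBSS.

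Their partners moved apart too. Snx5 was higher in Vps15KO by 0.48 ± 0.06 in basal medium and 0.45 ± 0.06 in EBSS (adjusted p = 1.45e-06 and 2.91e-06), with means of 3382 ± 165 and 4716 ± 86.2 in basal medium, and was not called for EBSS. Its exons overlap Mgme1 on the other strand, which was higher in Vps15KO by 0.32 in each medium. Snx32 (chr19:5495274-5510708), a close relative of Snx5 and Snx6, had 647, 812 and 642 normalised counts in WT basal, 264, 271 and 255 in WT EBSS, 480.4, 537 and 483 in Vps15KO basal and 253, 267 and 265 in Vps15KO EBSS libraries. Both EBSS groups met at the same low level, 252.7 to 271 in all 6 libraries. EBSS lowered it by 1.32 ± 0.09 in WT (adjusted p = 4.5e-10), below only Vps37d in size among the falls of members on this scale, and by 0.87 ± 0.09 in Vps15KO (adjusted p = 1.69e-07). In basal medium it was lower in Vps15KO by 0.46 ± 0.09, and the difference of the EBSS effects was 0.45 ± 0.12 (adjusted p = 0.0162). The gene overlaps the very abundant Cfl1 on the other strand (mean 23760 in WT basal libraries), which changed by -0.21 with EBSS in WT and by -0.43 in Vps15KO in basal medium; the part of that overlap in the values of Snx32 was not tested.

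Snx9 (chr17:5841324-5931956), which couples clathrin-coated pits to dynamin and actin, had 5760, 4483 and 5346 normalised counts in WT basal, 10535, 10912 and 11083 in WT EBSS, 4461, 3858 and 3864 in Vps15KO basal and 6053, 5838 and 5283 in Vps15KO EBSS libraries. EBSS raised it in both genotypes, and Vps15KO was lower in both media. The rises were 1.06 ± 0.08 (adjusted p = 4.22e-09) and 0.49 ± 0.08 (adjusted p = 7.49e-05), and their difference was -0.57 ± 0.12 (adjusted p = 0.00242). Vps15KO was lower by 0.35 ± 0.08 in basal medium and by 0.92 ± 0.08 in EBSS (adjusted p = 2.79e-08). Its relative Snx18 (chr13:113592179-113618564) had 801, 683 and 819.7 normalised counts in WT basal, 1114, 1106 and 1082 in WT EBSS, 983, 949.7 and 1007 in Vps15KO basal and 1030.5, 970.5 and 989 in Vps15KO EBSS libraries. Snx18 rose with EBSS in WT by 0.51 ± 0.07 and changed by 0.02 ± 0.07 in Vps15KO, and the difference was -0.48 ± 0.10 (adjusted p = 0.00205). The third member of that subfamily, Snx33 (chr9:56917188-56928442), had 1180.5, 1384 and 1171 normalised counts in WT basal, 1250, 1227 and 1194 in WT EBSS, 1146, 1030.1 and 936 in Vps15KO basal and 926, 933 and 952 in Vps15KO EBSS libraries. It was not called for EBSS and was lower in Vps15KO by 0.26 ± 0.08 in basal medium and 0.38 ± 0.08 in EBSS (adjusted p = 0.00746 and 0.000367), the basal call being lost without Vps15KO basal replicate 3.

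Snx30 (chr4:59805131-59904740), which joins Snx4 in a recycling and autophagy-linked complex, had 1026, 816 and 1089.6 normalised counts in WT basal, 1024, 1111 and 1087 in WT EBSS, 851, 883 and 941 in Vps15KO basal and 1661, 1671 and 1634 in Vps15KO EBSS libraries. The Vps15KO EBSS libraries lay above the other 9, which overlapped. EBSS raised it in Vps15KO by 0.87 ± 0.08 (adjusted p = 9e-08), while in WT the change was 0.14 ± 0.08 (adjusted p = 0.145). The difference of 0.73 ± 0.12 passed the test (adjusted p = 0.000326). Snx8 (chr5:140340293-140389308), a nexin of endosome-to-Golgi transport, had 481, 617 and 499.8 normalised counts in WT basal, 986, 859 and 958 in WT EBSS, 644, 632 and 658 in Vps15KO basal and 1016, 970.5 and 919 in Vps15KO EBSS libraries. It rose in both genotypes, by 0.79 ± 0.08 in WT (adjusted p = 2.28e-07) and 0.57 ± 0.08 in Vps15KO (adjusted p = 1.89e-05), and reached similar levels in both. Snx8 was higher in Vps15KO in basal medium by 0.27 ± 0.08.

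The other sorting nexins, with a PX domain but no BAR domain, numbered 18, of which 17 were tested. EBSS raised 7 and lowered 5 in WT (31.4% and 31.3% of all genes) and raised 6 and lowered 3 in Vps15KO (25.9% and 26.1%). The counts in WT were 5 and 6 under quantile normalisation. Vps15KO had 6 higher and 4 lower in basal medium (29.3% and 29.2%) and 9 higher and 0 lower in EBSS (29.4% and 27.8%), the latter count being 6 and 3 under quantile normalisation. Cargo adaptors were among those that moved. Snx27, whose PDZ domain selects receptors for retromer, was higher in Vps15KO in both media (0.60 ± 0.08 and 0.29 ± 0.08) and rose with EBSS in WT (0.43 ± 0.08). Snx17, the adaptor of retriever, fell with EBSS in WT by 0.31 ± 0.07 and was lower in Vps15KO in basal medium by 0.29 ± 0.07, and its exons overlap Eif2b4 and Zfp513 on the other strand, which were both called lower in those comparisons as well. Snx3, the PX-only adaptor that brings Wntless to retromer, changed by -0.06 ± 0.06 with EBSS in WT and fell by 0.28 ± 0.06 in Vps15KO (adjusted p = 0.000847), and the difference did not pass the test (adjusted p = 0.086).

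Snx31 (chr15:36504062-36560129), a relative of Snx17 described as an adaptor for uroplakins, had 0, 2.12 and 2.00 normalised counts in WT basal, 2.01, 1.02 and 3.06 in WT EBSS, 43.9, 47 and 48 in Vps15KO basal and 53.1, 41.4 and 70.1 in Vps15KO EBSS libraries. It was at the limit of detection in WT libraries, with 4 reads over the 3 basal and 6 over the 3 EBSS libraries, against 142 and 167 in Vps15KO. The ratio of Vps15KO to WT was 34.1 in basal medium (95% exact interval 13 to 127) and 27.0 in EBSS (12.2 to 74.8), intervals that cover counting error only. On the variance-stabilised scale, which compresses low counts, the changes were 1.98 ± 0.16 and 1.96 ± 0.16 (adjusted p = 8.14e-09 and 8.52e-09). Snx31 passed the filter on low values, a mean over all 12 libraries, only through its Vps15KO libraries. These adjusted p-values are therefore descriptions and no independent support for the difference. The level stayed low in Vps15KO, at 17.2 normalised counts per kilobase in basal medium.

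Snx10 (chr6:51523900-51590679), a PX-only nexin linked to the vacuolar proton pump and to osteoclasts, had 363, 355 and 368 normalised counts in WT basal, 346, 350.1 and 347 in WT EBSS, 654, 578 and 667 in Vps15KO basal and 648, 685 and 576 in Vps15KO EBSS libraries. All 6 Vps15KO libraries lay above all 6 WT libraries, and EBSS was not called. Vps15KO was higher by 0.76 ± 0.08 in basal medium (adjusted p = 1.43e-07) and 0.82 ± 0.08 in EBSS (adjusted p = 4.86e-08). The macrophage and lysosome gene Cd68 was also higher in Vps15KO, by 1.94 in basal medium and 1.75 in EBSS, and its part in the values of Snx10 was not tested. Snx16 (chr3:10417817-10440131), a nexin of late endosomes, had 299.6, 200.1 and 276 normalised counts in WT basal, 384, 337 and 376 in WT EBSS, 387, 328 and 329 in Vps15KO basal and 705, 675 and 624 in Vps15KO EBSS libraries. It rose with both factors: EBSS by 0.47 ± 0.11 in WT and 0.89 ± 0.11 in Vps15KO (adjusted p = 0.00112 and 2.63e-06), Vps15KO by 0.41 ± 0.11 in basal medium and 0.82 ± 0.11 in EBSS (adjusted p = 0.00411 and 4.43e-06). Snx16 overlaps the member Chmp4c on the other strand, and Chmp4c was also higher in Vps15KO (0.34 ± 0.11 and 0.58 ± 0.11) but was not called for EBSS.

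Snx21 (chr2:164785759-164793810), a nexin with a protein-binding repeat region beside its PX domain, had 962, 1125 and 919.7 normalised counts in WT basal, 626, 551 and 698 in WT EBSS, 785, 809.6 and 757 in Vps15KO basal and 618, 695 and 690.5 in Vps15KO EBSS libraries. EBSS lowered it by 0.66 ± 0.09 in WT (adjusted p = 3.4e-06) and by 0.22 ± 0.09 in Vps15KO (adjusted p = 0.0396, lost in 7 alternative fits), with a difference of 0.44 ± 0.12 (adjusted p = 0.0203) that 4 of the 12 fits without 1 library did not call. Exons of Snx21 overlap Acot8 on the other strand, which fell with EBSS by 0.35 in WT and 0.25 in Vps15KO. The part of that overlap was not tested. Snx22 (chr9:66065174-66069759), a short PX-only nexin, was low throughout, with 34.1, 55 and 45 normalised counts in WT basal, 18.1, 10.2 and 8.16 in WT EBSS, 25.4, 34.3 and 23.5 in Vps15KO basal and 10.8, 14.8 and 16.8 in Vps15KO EBSS libraries. It fell with EBSS by 1.02 ± 0.15 in WT (adjusted p = 1.27e-05) and by 0.49 ± 0.15 in Vps15KO (adjusted p = 0.011), the latter lost without Vps15KO basal replicate 2 or EBSS replicate 1. Snx22 overlaps the abundant Ppib on the other strand (mean 7373 in WT basal libraries), which fell by 0.36 and 0.27 in the same comparisons, and the part of that overlap was not tested.

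**Figure D3:**
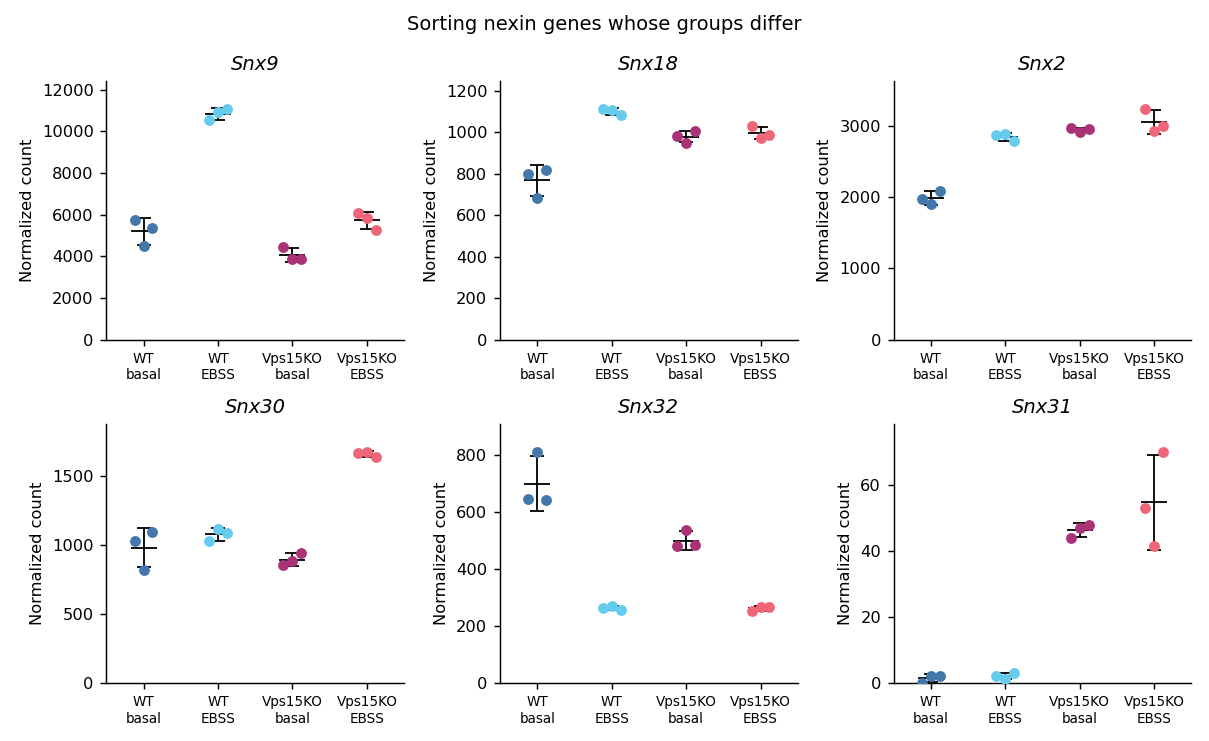
Normalised counts (vertical axis, from 0) of Snx9, Snx18, Snx2, Snx30, Snx32 and Snx31 in each of the 12 libraries by group, with the group mean and SD (n = 3). The Vps15KO EBSS libraries of Snx30 sit at 1634 to 1671, above the other 9, and both EBSS groups of Snx32 lie within 252.7 to 271.

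Within ESCRT-I and ESCRT-II, the subunit Vps37b rose with EBSS and several others fell. EBSS raised 1 of 7 members and lowered 4 in WT (31.4% and 31.3% of all genes), and raised 2 and lowered 4 in Vps15KO (25.9% and 26.1%). Without both libraries that stand apart 3 fell in WT. Vps15KO had 2 higher and 3 lower in basal medium (29.3% and 29.2%) and 2 higher and 1 lower in EBSS (29.4% and 27.8%). The subunits Vps28, Vps25 and Vps36, which have no paralog in the list, fell in both genotypes.

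The 4 Vps37 genes encode alternatives for the same position of the ESCRT-I heterotetramer, beside Tsg101 and Vps28. Vps37b (chr5:124004641-124032260) had 769, 901 and 827 normalised counts in WT basal, 1983, 1894 and 2084 in WT EBSS, 1129.8, 1099.7 and 1299 in Vps15KO basal and 3149.5, 3252 and 3163 in Vps15KO EBSS libraries. The 4 groups did not overlap. Its rise with EBSS was the largest of any member in both genotypes, 1.23 ± 0.07 in WT (adjusted p = 8.72e-11) and 1.42 ± 0.07 in Vps15KO (adjusted p = 1.78e-11), and Vps15KO was higher by 0.48 ± 0.07 in basal medium and 0.68 ± 0.07 in EBSS. The difference of the EBSS effects did not pass the test (0.19 ± 0.10, adjusted p = 0.211). Its exons overlap Hip1r on the other strand, which was higher in Vps15KO by 0.69 in basal medium and fell with EBSS by 0.33 in Vps15KO.

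Vps37d (chr5:135072899-135078326) went the other way, with 289, 334 and 257 normalised counts in WT basal, 109, 84.5 and 97.9 in WT EBSS, 192, 162 and 154 in Vps15KO basal and 96.4, 128 and 119 in Vps15KO EBSS libraries. WT basal libraries lay above the rest, and the 2 EBSS groups overlapped. Its fall in WT was the largest of any member on the variance-stabilised scale, which compresses low counts, while in normalised counts Snx22 fell further, to 27.2% of its basal mean against 33.1%. EBSS lowered it by 1.37 ± 0.12 in WT (adjusted p = 1.39e-08) and by 0.48 ± 0.12 in Vps15KO (adjusted p = 0.00234). Vps15KO was lower in basal medium by 0.70 ± 0.12 (adjusted p = 5.14e-05). The difference of the EBSS effects was 0.89 ± 0.17 (adjusted p = 0.00115), the largest difference among the members.

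Vps37a (chr8:40511742-40551134), the subunit with a ubiquitin-conjugating-enzyme-like fold that also serves autophagosome closure, had 385, 308 and 447 normalised counts in WT basal, 447, 441 and 420.0 in WT EBSS, 719.7, 789 and 803 in Vps15KO basal and 887, 864 and 842 in Vps15KO EBSS libraries. Vps15KO was higher by 0.98 ± 0.10 in basal medium (adjusted p = 7.88e-08) and 0.94 ± 0.10 in EBSS (adjusted p = 1.19e-07), and EBSS was not called in either genotype. The Vps15KO EBSS libraries did lie above the Vps15KO basal ones, and without both libraries that stand apart this rise of 0.16 ± 0.06 was called (adjusted p = 0.0319). Vps37c had means of 921 ± 49.5, 990.2 ± 74, 805 ± 8.98 and 980.3 ± 65.6. Expressed per kilobase of transcript, Vps37b made up 35.8% of the 4 in WT basal and 61.2% in WT EBSS libraries, 46.8% in Vps15KO basal and 68.8% in Vps15KO EBSS. Vps37d made up 20.6%, 4.88%, 11% and 4.02%. The sum of the 4 per kilobase went from 922 to 1290 in WT and from 996 to 1840 in Vps15KO.

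Vps28 (chr15:76622086-76626084), the ESCRT-I subunit that contacts ESCRT-II, had 2117, 2571 and 2073 normalised counts in WT basal, 1499.5, 1581 and 1632 in WT EBSS, 1744, 1996 and 1847 in Vps15KO basal and 1180, 1245 and 1305 in Vps15KO EBSS libraries. It fell with EBSS by 0.51 ± 0.08 in WT and 0.57 ± 0.08 in Vps15KO (adjusted p = 1.83e-05 and 7.49e-06), and was lower in Vps15KO by 0.27 ± 0.08 in basal medium and 0.33 ± 0.08 in EBSS (adjusted p = 0.00667 and 0.00133). Exons of Vps28 overlap Tonsl on the same strand, which fell with EBSS by 0.29 in WT and was not called in Vps15KO. The part of that overlap was not tested. Of the ESCRT-II members, Vps25 fell with EBSS by 0.37 ± 0.07 and 0.32 ± 0.07 in WT and Vps15KO. Vps36, which binds ubiquitin and lipid, fell by 0.25 ± 0.07 and 0.19 ± 0.07, the call in WT being lost without both libraries that stand apart and that in Vps15KO (adjusted p = 0.0454) in 7 alternative fits.

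Among the ESCRT-III and Vps4 genes of the naming rule, EBSS lowered more than it raised. Of 12 Chmp and Vps4 genes, EBSS lowered 7 and raised 2 in WT, beside 31.3% and 31.4% of all genes. In Vps15KO it lowered 7 and raised 1, beside 26.1% and 25.9%. The median change was -0.21 and -0.17, beside -0.015 and -0.019 over all genes. With trends for transcript length and GC content removed the falls were 6 and 6, and without both libraries that stand apart 5 and 7. The genes that fell in both genotypes were Chmp2a, Chmp2b, Chmp4b, Chmp5, Chmp6 and Chmp7, beside 19.7% of all genes. Vps15KO had 4 higher and 4 lower in basal medium (29.3% and 29.2% of all genes). In EBSS 4 were higher and 1 lower (29.4% and 27.8%), and with equal medians 2 and 2. No difference between genotypes in the EBSS effect was called in this group (0 at adjusted p under 0.05 by limma, 4 at unadjusted p under 0.05, and 1, Vps4a, in the voom fit). With length and GC trends removed 2 differences were called higher, with quantile normalisation 1 higher, and without both libraries that stand apart 1 lower.

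Chmp6, which starts the ESCRT-III filament on ESCRT-II, fell most, from 511, 594 and 439 to 282, 309 and 309.9 in WT and from 449, 377 and 399 to 281, 284 and 309 in Vps15KO libraries. Its changes were -0.72 ± 0.10 (adjusted p = 4e-06) and -0.45 ± 0.10 (adjusted p = 0.000787). Chmp2a, a subunit that caps the filament and recruits Vps4, fell from 2039.7 ± 354 to 1398 ± 67.5 in WT (-0.52 ± 0.09) and from 1661 ± 151 to 1237 ± 20 in Vps15KO (-0.41 ± 0.09). Its paralog Chmp2b fell by 0.25 ± 0.06 and 0.21 ± 0.06 and, unlike Chmp2a, was higher in Vps15KO, by 0.32 ± 0.06 in basal medium and 0.35 ± 0.06 in EBSS. Chmp4b, the main filament subunit and the most abundant member per kilobase (mean of 3195 over the 4 groups), fell by 0.23 ± 0.07 and 0.21 ± 0.07, calls lost with length and GC trends removed. Chmp7, which acts at the reforming nuclear envelope, fell by 0.39 ± 0.06 in WT (adjusted p = 2.73e-05) and 0.17 ± 0.06 in Vps15KO (adjusted p = 0.0296, lost in 5 alternative fits) and was lower in Vps15KO in basal medium by 0.31 ± 0.06.

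Chmp1b and Vps4b rose. Chmp1b rose in WT by 0.31 ± 0.07 (adjusted p = 0.00133) and changed by 0.05 ± 0.07 in Vps15KO. Vps4b, 1 of the 2 ATPases that recycle ESCRT-III, went from 1493, 1226 and 1444 to 1992, 2106 and 2038 in WT and from 1658, 1604 and 1759 to 2189, 2214 and 2187 in Vps15KO libraries. It rose by 0.56 ± 0.07 and 0.39 ± 0.07 (adjusted p = 1.41e-06 and 0.000126), while Vps4a fell by 0.17 ± 0.06 in WT (adjusted p = 0.0302), a call lost in 6 alternative fits, and changed by 0.10 ± 0.06 in Vps15KO. The share of Vps4b in the pair, per kilobase, was 35.5% in WT basal, 47.8% in WT EBSS, 45.4% in Vps15KO basal and 50.4% in Vps15KO EBSS libraries. Chmp3 fell in Vps15KO alone by 0.18 ± 0.05, and Chmp1a and Chmp4c were not called for EBSS.

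**Figure D4:**
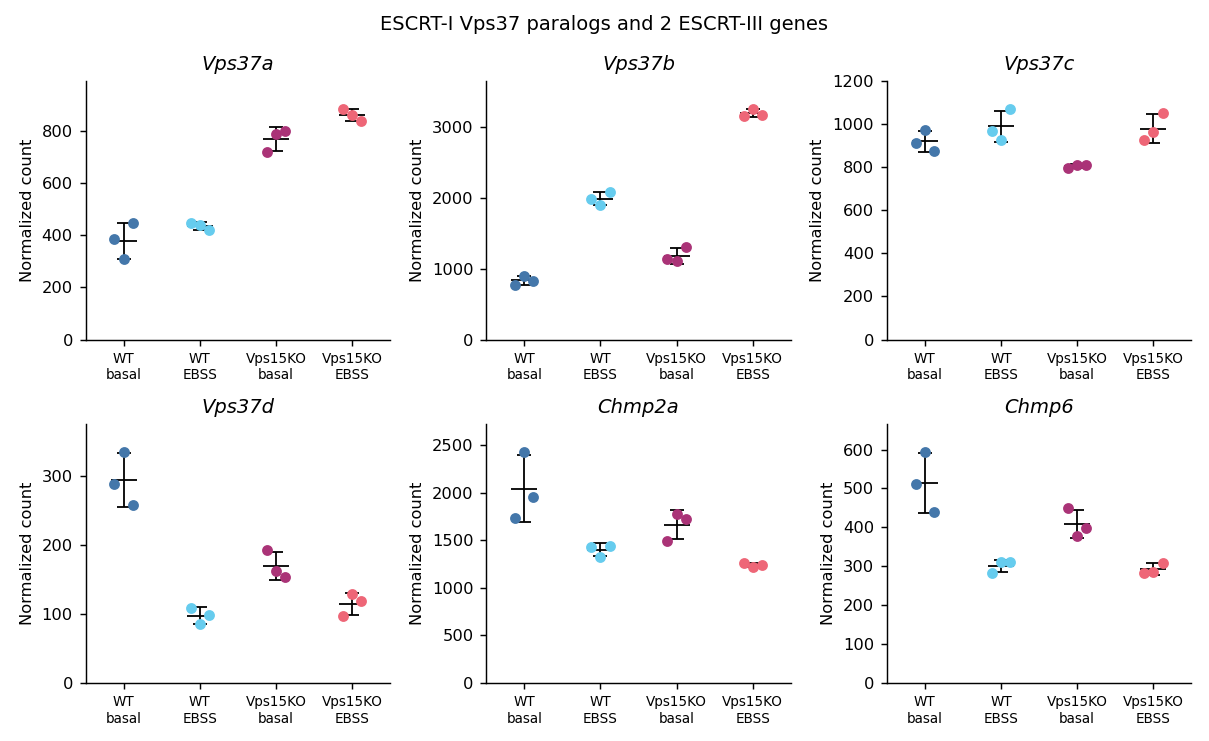
Normalised counts (vertical axis, from 0) of the 4 Vps37 genes, Chmp2a and Chmp6 in each of the 12 libraries by group, with the group mean and SD (n = 3). Vps37b is highest in the EBSS groups, Vps37d in WT basal and Vps37a in the 2 Vps15KO groups, and Chmp6 lies at 281 to 310 in all EBSS libraries.

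The tethering complexes HOPS and CORVET and the fusion regulators of the Sec1/Munc18 family held both rises and falls, in shares near those of all genes. Of 9 members, EBSS raised 3 and lowered 3 in WT (31.4% and 31.3% of all genes) and raised 2 and lowered 2 in Vps15KO (25.9% and 26.1%). The 4 subunits that HOPS and CORVET share are Vps11, Vps16, Vps18 and Vps33a. Vps18, a RING subunit, rose by 0.50 ± 0.06 and 0.50 ± 0.06 in WT and Vps15KO (adjusted p = 7.97e-07 and 1.57e-06). Vps33a, the subunit that clamps SNAREs, rose by 0.64 ± 0.06 and 0.54 ± 0.06 (adjusted p = 6.88e-08 and 9.09e-07), from 839.9 ± 28.2 to 1319 ± 14.2 in WT. Vps16, its direct binding partner, fell by 0.53 ± 0.06 in WT (adjusted p = 5.82e-07) and 0.19 ± 0.06 in Vps15KO (adjusted p = 0.014), the latter lost without Vps15KO basal replicate 1 or EBSS replicate 1. Vps11 was not called for EBSS (0.02 ± 0.07 and 0.03 ± 0.07). Vps16 and Vps33a moved in opposite directions, and both windows shown above hold TCACGTGA near the start. Exons of Vps16 overlap Pced1a on the other strand, which fell by 0.96 in WT and 0.54 in Vps15KO, and the part of that overlap was not tested.

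Vps45 (chr3:95999832-96059661), a fusion regulator of early endosomes, had 684, 801 and 618 normalised counts in WT basal, 406, 410.1 and 366 in WT EBSS, 515, 556 and 540.3 in Vps15KO basal and 394, 387 and 355 in Vps15KO EBSS libraries. It fell with EBSS by 0.78 ± 0.09 in WT and 0.48 ± 0.09 in Vps15KO (adjusted p = 3.55e-07 and 0.000167), was lower in Vps15KO in basal medium by 0.36 ± 0.09, and overlapped between the 2 EBSS groups. Between genotypes, Vps11, Vps18 and the HOPS subunit Vps39 were higher in Vps15KO in both media (Vps11 0.41 ± 0.07 and 0.42 ± 0.07, Vps18 0.30 ± 0.06 and 0.30 ± 0.06, Vps39 0.34 ± 0.06 and 0.24 ± 0.06). The other HOPS subunit, Vps41, rose with EBSS in WT by 0.22 ± 0.06 and was lower in Vps15KO in EBSS by 0.32 ± 0.06. The CORVET subunit Vps8 was lower in Vps15KO by 0.44 ± 0.08 in basal medium and 0.20 ± 0.08 in EBSS (adjusted p = 0.000186 and 0.043), the latter lost in 9 alternative fits.

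GARP and EARP share Vps51, Vps52 and Vps53 and differ in Vps54, of GARP, and Vps50, of EARP. In Vps15KO basal libraries all 3 shared subunits were lower, by 0.35 ± 0.07, 0.46 ± 0.07 and 0.34 ± 0.08 (29.2% of all genes). Both specific ones were higher, Vps54 by 0.32 ± 0.07 and Vps50 by 0.50 ± 0.08 (29.3% of all genes). In EBSS 1 of the 5 was higher, Vps54 by 0.465, and 2 were lower (29.4% and 27.8% of all genes). The 2 were Vps51 by 0.20 and Vps52 by 0.19, calls lost in 3 and 5 of 21 alternative fits. Vps53 and Vps50 were not called between genotypes in EBSS. Vps52 (chr17:33955779-33967038) had 1164, 1399 and 1229.6 normalised counts in WT basal, 1039, 1036 and 976 in WT EBSS, 934, 877 and 913 in Vps15KO basal and 860.4, 933 and 876 in Vps15KO EBSS libraries. Its fall with EBSS in WT was 0.30 ± 0.07 (adjusted p = 0.000998), its value in Vps15KO in basal medium had adjusted p = 1.76e-05, and its exons overlap those of the ribosomal gene Rps18 on the other strand, which changed by -0.28 with EBSS in WT and was level between genotypes. EBSS lowered Vps51 in both genotypes (-0.61 ± 0.07 and -0.46 ± 0.07) and raised Vps50 in WT (0.56 ± 0.08, adjusted p = 7.3e-06). The difference of the EBSS effects on Vps50 was -0.37 ± 0.11 (adjusted p = 0.0261), a call lost in 8 alternative fits.

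The VPS13 genes encode very long lipid transfer proteins at membrane contacts. Vps13b (chr15:35371118-35931229), which acts at the Golgi, had 1749.7, 1458 and 1698 normalised counts in WT basal, 2069, 1787 and 1590.4 in WT EBSS, 1089, 1062 and 1023 in Vps15KO basal and 1212, 1148 and 1168 in Vps15KO EBSS libraries. The genotypes did not overlap in either medium. Vps15KO was lower by 0.61 ± 0.08 in basal medium and 0.61 ± 0.08 in EBSS (adjusted p = 5.71e-06 and 5.84e-06). Vps13c, of late endosomes and lysosomes, was higher in Vps15KO by 0.54 ± 0.08 and 0.71 ± 0.08 (adjusted p = 2.08e-05 and 8.87e-07), with means of 447 ± 14.1 and 664 ± 48.9 in basal medium. The share of Vps13b among the 4 genes per kilobase was, in basal medium, 39.4% in WT and 28.8% in Vps15KO, and that of Vps13c 12.9% and 21.5%. The exons of Vps13b overlap Cox6c on the other strand, which was lower in Vps15KO by 0.51 in basal medium and 0.64 in EBSS, and the part of that overlap was not tested. Vps13a fell with EBSS in WT by 0.40 ± 0.07, and Vps13d was lower in Vps15KO by 0.27 ± 0.09 in basal medium and 0.23 ± 0.09 in EBSS, calls lost in 3 and 8 of 21 alternative fits. The 2 members outside these roles were Vps72, a chromatin protein that shares only the name and fell with EBSS in WT by 0.25 ± 0.08, and Vps9d1, which fell by 0.24 ± 0.08.

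Set side by side, 13 members rose with EBSS in both genotypes (17.6%, beside 20.7% of all genes) and 17 fell in both (23%, beside 19.7%). A further 9 were called higher and 9 lower in WT alone (10.2% and 10.9% of all genes), and 4 higher and 2 lower in Vps15KO alone (4.5% and 5.83%). None was called in opposite directions, beside 1.23% of all genes, and 20 were called in neither genotype, beside 27%. Across the 74 members the EBSS changes of the 2 genotypes, which share no library, correlated with Pearson's r of 0.834 and Spearman's rho of 0.826, and over all genes r was 0.799. These are descriptions, since members are not replicates and share libraries, length and base composition.

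A difference in the EBSS effect, tested directly, was found for 13 members, 7 higher and 6 lower in Vps15KO than in WT, beside 9.55% and 8.24% of all genes. With a log2 difference of at least 0.5 required, 2 were higher and 1 lower (5% and 3.6%). The counts were 11 and 10 without both libraries that stand apart, 10 were lower without WT basal replicate 2 alone, and 4 were higher without WT EBSS replicate 2. The 7 were Vps37d, Snx30, Snx32, Snx21, Snx11, Vps16 and Vps13a, and the 6 were Snx9, Snx18, Snx2, Vps35, Vps50 and Vps26a. The call was lost in 9 of 21 alternative fits for Vps13a and in 3 for Snx11. They were of 3 kinds. For Vps37d, Snx32, Snx21, Vps16 and Vps13a a fall in WT was smaller in Vps15KO, and for the first 3 Vps15KO was also lower in basal medium. For Snx9, Snx18, Snx2, Vps35, Vps50 and Vps26a a rise in WT was smaller in Vps15KO, and all but Snx9 were also higher in Vps15KO in basal medium. The basal libraries enter both of these values. Among these 13, Snx30 and Snx11 were the members whose rise was called in Vps15KO and not in WT. Snx11 went from 277 ± 10.5 to 366 ± 27.6 in Vps15KO (0.37 ± 0.09, against -0.07 ± 0.09 in WT).

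The balance between paralogs that share a task is given by their shares. These are per kilobase of the longest transcript and were chosen for display after the values were seen. Vps33a made up 61.8% of Vps33a and Vps33b in WT basal libraries and 76% in WT EBSS, 63.9% in Vps15KO basal and 73.6% in Vps15KO EBSS. Snx2 made up 60.8% of Snx1 and Snx2 in WT basal and 68.4% to 70% in the other 3 groups. Snx32 was 8.83% of Snx5, Snx6 and Snx32 in WT basal, 3.31% in WT EBSS, 5.25% in Vps15KO basal and 2.86% in Vps15KO EBSS libraries, while the sum of the 3 stayed at 2630 per kilobase in both WT groups. Chmp2a was 68.8% of the Chmp2 pair in WT basal and 55.9% in Vps15KO EBSS libraries. In the Chmp4 pair, Chmp4b was 99% or more of the sum in all 4 group means.

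**Figure D5:**
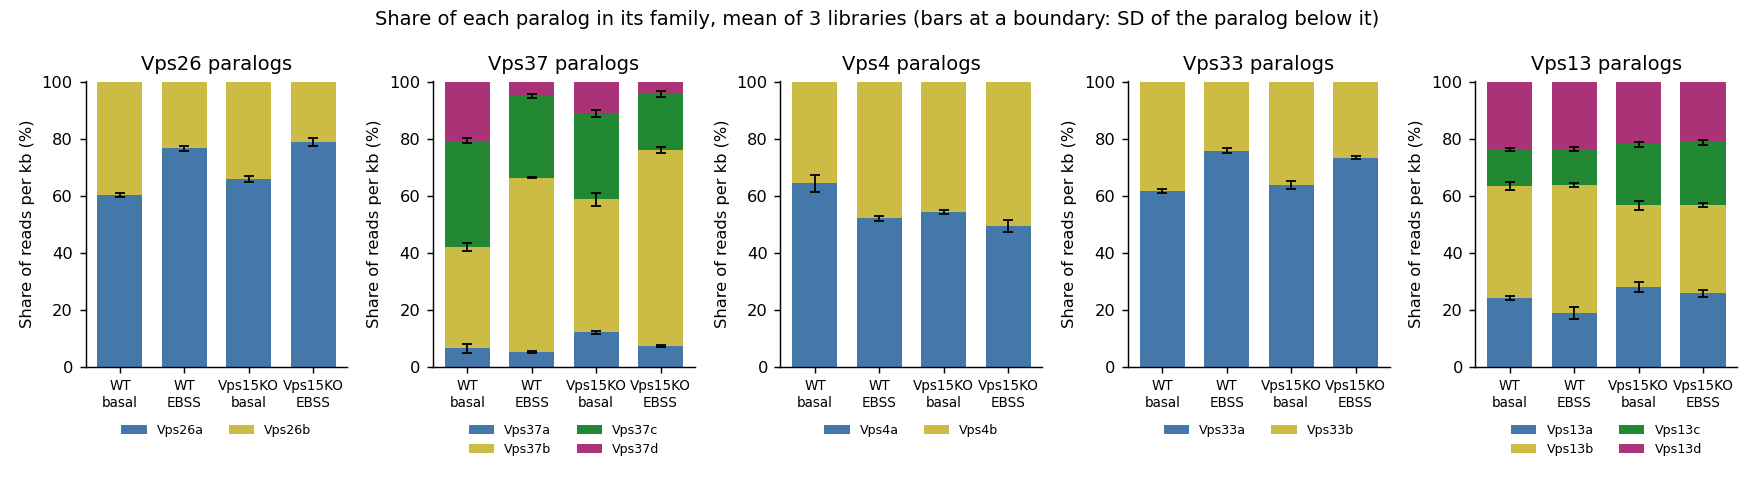
Share of each paralog (percent, stacked to 100) in the Vps26, Vps37, Vps4, Vps33 and Vps13 families, from normalised counts per kilobase, as the mean of 3 libraries in each group, with the SD of the paralog below each boundary. Vps26a, Vps37b, Vps33a and Vps4b take a larger share in both EBSS groups than in the basal group of the same genotype, and Vps37d a smaller one.

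In level the members spanned a wide range. Over the mean of the 4 groups, 11 members exceeded 1000 normalised counts per kilobase, 9 were below 100, and the median was 301. Chmp4b, Snx9, Snx3 and Chmp2a were highest, at 3195, 1938, 1770 and 1669 per kilobase. Base composition went with the changes: Spearman's rho between GC content and the log2 change over the 74 members was -0.43 for EBSS in WT, -0.32 for EBSS in Vps15KO, -0.56 for Vps15KO in basal medium and -0.31 for Vps15KO in EBSS, beside -0.28, -0.21, -0.23 and -0.09 over all genes with an annotated transcript. For transcript length rho was 0.29 and 0.42 for EBSS in WT and Vps15KO, beside 0.31 and 0.34. Exons of 23 of the 75 members overlap another gene of the table, 18 of them on the opposite strand. The other 5, Vps25, Vps28, Vps51, Vps53 and Snx30, overlap on the same strand.

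Partners outside the naming rule were read from lists of 50 genes. The lists were chosen with earlier results of these data known, so their counts are descriptions and no independent support. Over these lists EBSS raised 21 and lowered 12 in WT (31.4% and 31.3% of all genes) and raised 20 and lowered 10 in Vps15KO (25.9% and 26.1%). Vps15KO had 23 higher and 9 lower in basal medium (29.3% and 29.2%) and 19 and 8 in EBSS (29.4% and 27.8%). The WASH complex, which builds actin on endosomes and is held there by Vps35, rose at 3 of 5 genes in both genotypes (20.7% of all genes). Washc5 rose by 1.05 ± 0.06 and 0.74 ± 0.06, Washc4 by 0.81 ± 0.12 and 0.46 ± 0.12, and Washc2, the subunit that binds Vps35, by 0.49 ± 0.06 and 0.40 ± 0.06. The same 3 were higher in Vps15KO in both media (20.6% of all genes), Washc5 by 0.79 ± 0.06 and 0.49 ± 0.06. Washc3 was lower in both media (-0.33 ± 0.09 and -0.35 ± 0.09) and Washc1 in basal medium (-0.22 ± 0.08, adjusted p = 0.0241). Among ESCRT-0 and other ESCRT partners, 6 of 15 rose and 6 fell with EBSS in WT (31.4% and 31.3% of all genes). Tsg101 and Snf8, subunits of ESCRT-I and ESCRT-II, fell in both genotypes (Tsg101 -0.25 ± 0.06 and -0.19 ± 0.06, Snf8 -0.42 ± 0.08 and -0.40 ± 0.08). In the same list Mvb12a also fell in both (-0.55 ± 0.09 and -0.48 ± 0.09). Ist1 rose in both (0.47 ± 0.06 and 0.67 ± 0.06), and Mvb12b rose in WT (0.275 ± 0.07). Stam, Stam2 and the deubiquitinase Usp8 rose with EBSS in WT and were higher in Vps15KO in basal medium, and for each the EBSS effect was lower in Vps15KO (adjusted p = 0.0124, 0.046 and 0.0413). For 2 of the same list the effect was higher in Vps15KO, Vta1 by 0.45 ± 0.09 (adjusted p = 0.00162) and Ptpn23 by 0.30 ± 0.10 (adjusted p = 0.0385).

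The COMMD and CCC proteins, which work with retriever, were mixed, with 4 of 12 higher and 5 lower after EBSS in WT (31.4% and 31.3% of all genes) and 3 higher and 5 lower in Vps15KO in basal medium (29.3% and 29.2%). Of 9 retromer partners and cargoes, the iron transporter gene Slc11a2 differed most between genotypes, with means of 1318 ± 44.6 and 3407 ± 168 in basal medium (1.35 ± 0.06), and Sort1, a sorting receptor, was lower in Vps15KO (-0.44 ± 0.10 and -0.69 ± 0.10). Another list held 10 PI3P-binding tethers, enzymes and related proteins, and was also chosen with earlier results known. Of these, 6 were higher and 0 lower in Vps15KO in basal medium (29.3% and 29.2% of all genes). In EBSS 6 were higher and 1 lower (29.4% and 27.8%). Eea1, which tethers early endosomes, was higher by 0.90 ± 0.08 and 0.73 ± 0.08, and Pikfyve, the kinase that converts PI3P further, by 0.69 ± 0.10 and 0.37 ± 0.10.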

How the data were processed

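The data are 12 polyadenylated RNA-seq libraries of 4 groups of 3. The authors deposited 1 table of log2 values, variance-stabilised normalised counts of 32721 genes. Reads were aligned to mm10 with STAR 2.7.10b, and featureCounts, DESeq2 and limma were used, per the submitters' processing notes; the annotation and the use of strand are not given in the sources used here. The transformation was inverted from the floor of the table (3.83). All values gave whole reads within 0.001 of a read, with size factors of 0.945 to 1.02 and 21278921 to 21698584 reads per library; levels rest on these reads.

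The filter asked for a mean of 1 or more log2 units over the floor, and the 14279 genes left were tested with limma 3.58.1 in R 4.3.3 (a mean per group, moderated variance with a trend, two-sided, Benjamini-Hochberg adjustment over all genes tested, adjusted p under 0.05), which was tested on simulated data. Replicate numbers were not used to pair the libraries in the main fit. Values per library are given for the retromer and retriever core, the 4 largest called rises and falls without overlap in each comparison and the 4 largest differences in each direction; further members are named for their role. Members and lists were chosen with earlier results of these data known. Positions are from RefSeq (GRCm38.p6), lengths are of the longest GENCODE M21 transcript. Endings that mark pseudogenes were judged after the family name, which keeps Vps35 and its kind. Markers Krt5, Krt14 and Myod1 were looked for and were not among the 32721 genes. Muscle and neural markers summed to at most 127 normalised counts in a library.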

Additional observations from a re-analysis of the deposited data

Results flagged for a closer look

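For 13 members the effect of EBSS differed between genotypes by the direct test of the difference (Vps15KO minus WT, log2, limma with Benjamini-Hochberg adjustment over all genes tested). The difference was 0.89 for Vps37d (adjusted p = 0.00115), 0.73 for Snx30 (adjusted p = 0.000326), 0.45 for Snx32 (adjusted p = 0.0162), 0.44 for Snx21 (adjusted p = 0.0203), 0.43 for Snx11 (adjusted p = 0.0209), 0.34 for Vps16 (adjusted p = 0.0103) and 0.33 for Vps13a (adjusted p = 0.0325). It was -0.57 for Snx9 (adjusted p = 0.00242), -0.48 for Snx18 (adjusted p = 0.00205), -0.46 for Snx2 (adjusted p = 0.000724), -0.40 for Vps35 (adjusted p = 0.00994), -0.37 for Vps50 (adjusted p = 0.0261) and -0.31 for Vps26a (adjusted p = 0.0224). Of these, Vps37d, Snx30, Snx32, Vps16, Snx9, Snx18 and Snx2 passed the test under all 21 alternatives.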

How the results depend on the processing

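The 10 counts of members called were recomputed under 21 alternatives and a stricter call rule. With a log2 change of at least 0.5 also required, they fell to 12 and 10 (EBSS in WT, higher and lower), 6 and 2 (EBSS in Vps15KO), 8 and 2 (Vps15KO in basal medium), 9 and 2 (Vps15KO in EBSS) and 2 and 1 (difference of the EBSS effect). The count of members lower in Vps15KO in EBSS, 11, was 6 with no filter, 21 with quantile normalisation, 22 with equal medians, 21 with length and GC trends removed, and 5 to 21 with 1 library left out. The count of higher differences, 7, was 11 with length and GC trends removed, 11 without both WT libraries that stand apart, and 4 to 10 with 1 library left out. The count of lower differences, 6, was 10 without both and 4 to 10 with 1 library left out. The cause was not tested. All other recomputed counts stayed within 1.5 times the reported ones. Among all calls of members, 1 changed direction: the rise of Snx13 with EBSS in WT (0.31 on the log2 scale) was -0.02 with length and GC trends removed. Calls held under all 21 alternatives for 36 of 48 members (EBSS in WT), 27 of 36 (EBSS in Vps15KO), 37 of 49 (Vps15KO in basal medium), 25 of 38 (Vps15KO in EBSS) and 7 of 13 (difference).

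Replicate numbers were not used to pair the libraries in the main fit. Correlations of same-numbered deviations were 0.0905, 0.26 and 0.0825 between the basal groups and 0.124, 0.039 and 0.118 between the EBSS groups. Differently numbered ones ran from -0.212 to 0.106 between the basal groups and from -0.111 to -0.012 between the EBSS groups. Within WT between media the same-numbered ones were -0.0817, -0.155 and -0.0418. These values do not settle whether the numbers mark a pairing between genotypes. With the replicate number as a block the counts were 21 and 26 for EBSS in WT, 17 and 19 for EBSS in Vps15KO, 26 and 24 for Vps15KO in basal medium, 25 and 11 for Vps15KO in EBSS, and 8 and 7 for the difference. Reads were few for Snx31 and Snx20, with at most 3 and 2 reads in a WT library, and Snx22 was low as well.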
